A study of Mus musculus with 24 samples.

Results

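The cytosolic ribosomal proteins were examined as 49 genes with 105 probe sets, out of 18194 genes and 45101 probe sets on the array. A probe set, the group of short array probes that reports 1 transcript, was a member when the platform annotation listed exactly 1 gene symbol for it and that symbol was Rpl or Rps with a number, or Rplp0, Rplp1, Rplp2 or Rpsa; S6 kinases and pseudogene names were left out. The small 40S subunit was represented by 57 probe sets of 23 genes and the large 60S subunit by 48 probe sets of 26 genes. A single probe set stood for 25 genes, and up to 6 stood for the others. A further 110 probe sets list several symbols that include a ribosomal protein and were not members. Rplp1, Rpl3, Rpl5 and Rpl10 therefore have no member.

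The samples were livers of 18 male C57BL6J mice, 6 per group, taken after 4 weeks of diet and a fast of 16 h. LF mice ate a low-fat diet, HF mice a high-fat diet with 45% fat, and HF+P mice the high-fat diet with 5% propagule powder of Japanese yam, the small aerial tubers of that plant. Total RNA of each mouse was hybridised to its own Affymetrix array, which reads transcripts near the 3' end. The deposited table has 24 columns. The HF arrays appear in 2 processing runs, with LF in one and with HF+P in the other, so HF against LF and HF+P against HF were compared in separate sets of 12 columns. The same 6 HF mice serve in both comparisons.

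Cytosolic ribosomal proteins and ribosomal RNA together form the ribosome, which reads mRNA on its small subunit and joins amino acids on its large subunit. Their mRNAs are abundant in most tissues, and in mammals they begin with a run of pyrimidines at the cap, the 5' TOP tract, through which mTORC1 and LARP1 set how strongly they are translated when nutrients change. That control acts mainly on translation, which mRNA levels do not show.

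The start of these genes is shown because the TOP tract is the sequence they share. RefSeq start sites on GRCm38.p6 were matched for 43 of the 49 genes, with 51 start sites. The stretches below run from 25 bases before the start to 15 bases from it on, 5' to 3' on the gene's own strand. Capitals mark the longest run of C and T within 15 bases on either side of the start, and longer runs can lie outside. The run need not begin at the start. In Rps27l and Rps3 it lies wholly before the annotated start, so it is not in an mRNA from there, and in Rpl39 it lies after it.
Rps6, a 40S protein and the substrate of S6 kinase, chr4:86857353-86857392, minus strand: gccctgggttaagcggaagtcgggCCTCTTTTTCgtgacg
Rplp2, an acidic protein of the 60S stalk, chr7:141447626-141447665, plus strand: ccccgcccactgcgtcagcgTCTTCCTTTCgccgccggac
Rps18, a protein of the 40S head, chr17:33955651-33955690, minus strand: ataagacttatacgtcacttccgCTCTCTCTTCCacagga
Rpl39, a small protein of the 60S exit tunnel, chrX:37085208-37085247, minus strand: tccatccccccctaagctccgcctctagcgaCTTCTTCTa
Rps3, a 40S protein at the mRNA entry channel, chr7:99483695-99483734, minus strand: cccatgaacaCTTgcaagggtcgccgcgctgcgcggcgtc
Rps28, a 40S protein near the mRNA exit, chr17:33824548-33824587, minus strand: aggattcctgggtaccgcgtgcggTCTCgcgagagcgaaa
Rps27l, a paralogue of Rps27, chr9:66946061-66946100, plus strand: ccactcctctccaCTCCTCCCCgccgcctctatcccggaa

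The longest pyrimidine run in the 30 bases around the start had a median of 6 bases over the 51 sites, against 4 over all promoters of the RefSeq table. A run of at least 6 bases stood at 52.9% of the sites of ribosomal protein genes and at 29.2% of all. In Rps6, Rplp2 and Rps18 the run was 10, 10 and 11 bases long, while the annotated starts of Rps3 and Rps28 had runs of 3 and 4 bases. In the wider windows of 250 bases before to 50 after the start, searched on both strands, the letters CCGGAAG, a core bound by ETS family factors, were present in 41.2% of the 51 windows and in 8.86% of all 32851. The letters AAGATGGC, a YY1 motif, were present in 7.84% against 2.75%, and TATAAA in 11.8% against 13.6%. A match describes letters and shows no binding.

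Deposited values are treated as log2 levels, and they differ between mice by millionths of a unit. The median pooled SD within groups was 3.14 millionths over the members in the LF and HF set and 3.59 millionths in the HF and HF+P set. Differences are therefore given as the standardized difference, which is the difference of group means in pooled within-group SDs with a small-sample correction, and never as a fold. Of the 105 members, 56 kept the same rank among all probe sets in all 12 columns of the first set, and 55 did so in the second, against 9.83% and 9.77% of all probe sets. The column medians of HF lay 33.6 millionths above those of LF, a shift larger than the group difference of 102 of the 105 members. Between HF+P and HF this shift was -1.27 millionths. Directions below hold for the values as deposited unless a rescaling is named.

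The comparison of HF with LF asks what the high-fat diet did to these mRNAs. Ribosomal protein signals were mostly lower in HF livers, by less than 1 pooled SD for the middle probe set, and none of the 105 probe sets passed the test. In numbers, 90 members (85.7%) had a lower mean in HF, against 49.2% of all 45037 probe sets tested. The median standardized difference was -0.83 over the members and 0.015 over all probe sets, and the middle 50% of members lay between -1.27 and -0.33. In the limma fit over all probe sets with Benjamini-Hochberg adjustment, 0 members passed at 0.05, against 0.671% of all probe sets; with trend and robust settings or with array weights the count was 0 as well. An unadjusted p below 0.05 was reached by 33 members (31.4%, against 12.9% of all), of which 31 were lower (29.5%, against 7.25%) and 2 higher (1.9%, against 5.69%). Groups overlapped in every member. Of all probe sets, 0.921% had every HF mouse below every LF mouse, and 0.644% had every HF mouse above. In simulated data for this comparison, the adjusted test recovered 3% of 100 probe sets shifted by 2 pooled SDs, and 69% of those shifted by 4. The count of 0 members therefore says little about differences of the size seen here.

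Rescaling the columns brought the share of lower members near that of the array, but it cannot decide whether the members stand apart. Subtracting medians moves HF against LF by 33.6 millionths, more than the group difference of 102 of 105 members. Quantile normalisation removes the members whose rank did not change. With each column's median subtracted, 104 of 105 members were lower, but so were 96.0% of all probe sets. On that scale 99 members passed as lower (94.3%, against 88.5% of all) and 0 as higher (against 0.944%). Quantile normalisation left 49 members with values that differed between columns; 40 of them were lower, against 85.4% of all probe sets. On this scale 8 passed as lower (16.3%, against 17.3% of the 40608 probe sets tested) and 4 as higher (8.16%, against 0.542%). Those that passed as lower included Rps6 (-2.28, adjusted p = 0.0133) and Rps20 1421935_at (-1.84, adjusted p = 0.0362; limma). Those that passed as higher were Rps14 1436586_x_at (2.66, adjusted p = 0.00756, limma), and Rpl35, Rpl37a and Rps26, which were chosen after their values were seen; all 4 had a lower mean in HF as deposited. These 4 held only 2 or 3 different values over the 12 columns after this step. The 8 that passed as lower held 2 to 7. Among them, also chosen after their values were seen, Rps10 1434854_a_at held 2, and Rpl12 and Rpl41 1433530_at held 3. Rpl12 had a higher mean in HF as deposited (0.31). Rps6 and Rps20 1421935_at held 6. The values of Rps26 did not differ within a group, so it has no standardized difference. With either rescaling the share of lower members is near the background. The median standardized difference was -2.09 for members and -1.99 for all probe sets with medians subtracted. After quantile normalisation it was -0.53 for the members left and -0.84 for all, so these members were less low than the array. More of them passed as higher than of all probe sets, but those held few different values. For the reasons above, neither rescaling can decide whether the members stand apart. The lower direction is therefore described here for the deposited scale only.

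**Figure D1:**
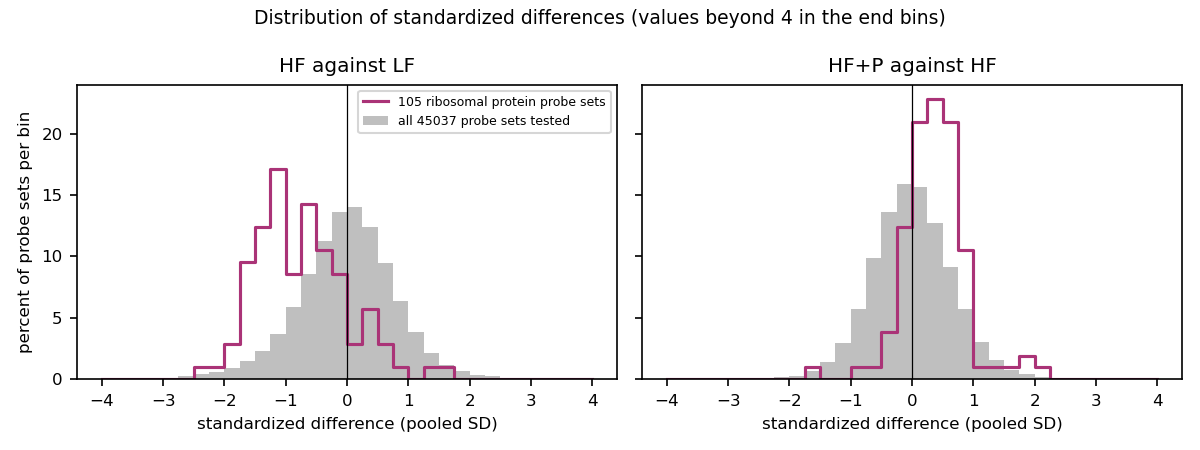
Share of probe sets (percent, vertical axis) in bins of the standardized difference (pooled SDs, horizontal axis) for the 105 ribosomal protein probe sets (line) and all 45037 tested (grey), HF against LF on the left and HF+P against HF on the right. The members' median is -0.83 on the left and 0.33 on the right, while that of all probe sets is 0.015 and -0.0095.

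The mice of a group did not share the lower values evenly. Each mouse was summarised by the median deviation of the 105 members from the LF mean, in pooled SDs. In LF these medians were 0.59, -0.41, -0.66, 0.016, 0.39 and 0.031 for mice 1, 2, 3, 4, 5 and 8. In HF they were -1.55, -1.82, -1.62, -0.69, -0.26 and 0.11 for the mice of those numbers. HF mice 1, 2 and 3 were far below every LF mouse, HF mouse 4 was just below the lowest, and HF mice 5 and 8 lay within the LF range. In HF mouse 2, 93 of 105 members were below their LF mean, and in HF mouse 8 this held for 44. Leaving out any 1 of the 12 mice kept between 86 and 90 members lower, with a median between -1.28 (without HF mouse 8) and -0.68 (without HF mouse 2).

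**Figure D2:**
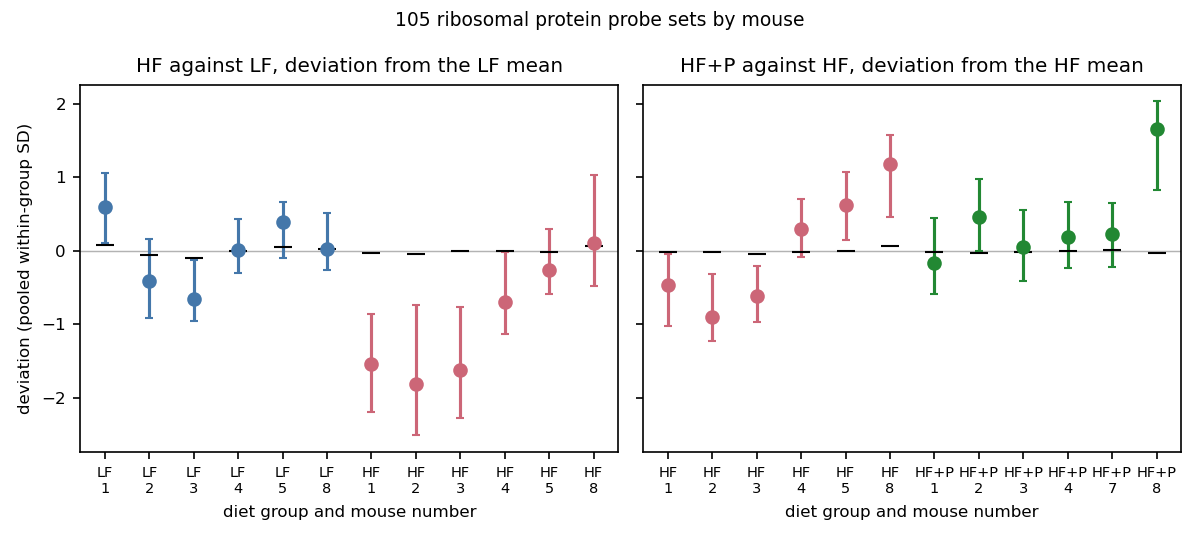
Median deviation of the 105 members in each mouse (points, with bars for the quartiles over members) from the LF mean on the left and the HF mean on the right, in pooled within-group SDs; short black lines give the median over all probe sets. HF mice 1, 2 and 3 lie at -1.55 to -1.82 on the left, and HF+P mouse 8 lies at 1.66 on the right.

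Lower values prevailed in both subunits. Of the 40S probe sets 46 of 57 were lower in HF (80.7%), with a median of -0.85, and of the 60S probe sets 44 of 48 (91.7%), with a median of -0.77. The 2 members that were higher at an unadjusted p below 0.05 belonged to the 40S subunit; the difference between subunits was not tested. The 10 probe sets of the paralogues Rpl3l, Rpl7l1, Rpl22l1, Rpl39l, Rps27l and Rps4l had 7 lower and a median of -0.22, but the difference from the other members was not tested. The share of lower members differed between bands of signal. Among members with a deposited mean of at least 10, 63 of 67 were lower with a median of -1.12, against 54.3% and -0.13 for all probe sets in that range. Between 8 and 10 all 14 members were lower, with a median of -0.47, but the share over all probe sets was not taken for this band. Below 8 it was 13 of 24 with a median of -0.05, against 46.8% and 0.05 of all. By gene, 36 of 49 had every probe set lower, 4 had every probe set higher (Rps2, Rpl12, Rpl22l1 and Rps16), and 9 had probe sets of both signs. Probe sets of 1 gene share its RNA, and those with the suffixes _s_at and _x_at can also share sequence with the many processed pseudogenes of this family, so their assignment is uncertain. The 34 plain _at members had 24 lower and a median of -0.37, against 48.1% and 0.033 of all plain _at probe sets. The 40 _x_at members had 37 lower and a median of -1.06, with no share taken over all _x_at probe sets.

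**Figure D3:**
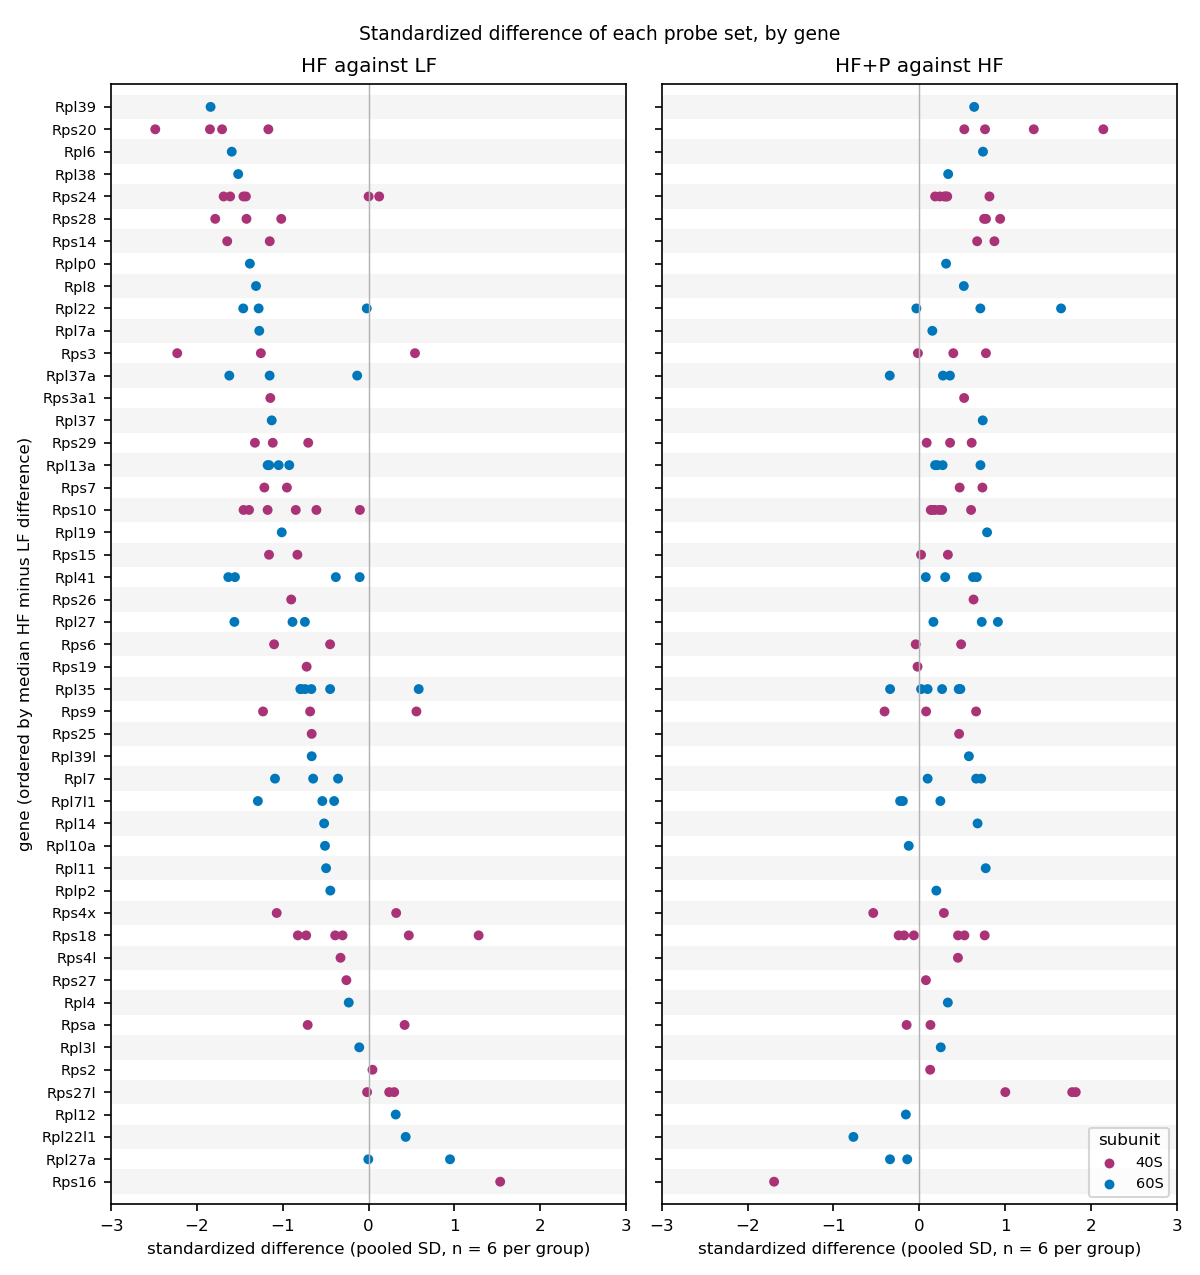
Standardized difference (pooled SDs, n = 6 mice per group) of each of the 105 probe sets as a point, 1 line per gene ordered by the HF minus LF median, coloured by subunit, with HF against LF on the left and HF+P against HF on the right. Points run from -2.49 (Rps20) to 1.53 (Rps16) on the left and from -1.69 (Rps16) to 2.15 (Rps20) on the right.

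Among proteins of the small subunit, Rps20, which sits in the 40S head, had the lowest standardized difference. Values of its probe set 1450417_a_at ran from -22.1 (mouse 1) to 12.2 millionths around the LF mean in LF, with a median of 4.71, and from -47.2 to -17.1 in HF, with a median of -33.3. HF mice 2, 3, 4, 5 and 8 lay below every LF mouse, and the groups overlapped through LF mouse 1 and HF mouse 1. The standardized difference was -2.49 (95% interval -3.96 to -0.96; limma, Benjamini-Hochberg adjusted p = 0.0609), and it passed when LF mouse 1 was left out (-3.42, adjusted p = 0.0342). All 4 probe sets of Rps20 were lower, between -2.49 and -1.17. The mean of 1450417_a_at was 6.78, below the column median of 6.90, whereas the brightest probe set of the gene had a mean of 12.65.

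Rps3, which also takes part in DNA repair, followed with -2.23 (-3.62 to -0.78; limma, adjusted p = 0.0840) in probe set 1455600_at. In LF its values were between -23.2 and 17.7 millionths (median 1.81) and in HF between -50.9 and -20.9 (median -34.0). Only the highest HF mouse, mouse 5, overlapped the lowest LF mouse, mouse 2. The other probe sets of Rps3 were at -1.26 and 0.54, so the gene has both signs.

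Rps28 probe set 1451101_a_at had values from -4.08 to 2.06 millionths in LF (median 0.26) and from -7.11 to -1.11 in HF (median -4.22). LF mouse 2 alone reached into the HF range. The standardized difference was -1.79 (-3.06 to -0.46; limma, adjusted p = 0.168), and all 3 probe sets of the gene were lower. For Rps24, mutated in some families with Diamond-Blackfan anaemia, 5 of 6 probe sets were lower; 1456628_x_at was at -1.69 (adjusted p = 0.185) and 1436064_x_at at -1.61 (adjusted p = 0.200, limma). Rps14, whose loss in the 5q- syndrome impairs red cell formation, had -1.65 (adjusted p = 0.211) in 1436586_x_at, where 3 HF mice lay below all LF mice; its sign turned after quantile normalisation, as given above.

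Further 40S proteins were nearer to zero. Rps6 ran from -18.5 to 23.7 millionths in LF (median -1.72) and from -31.6 to -1.28 in HF (median -14.6), a difference of -1.10 (-2.23 to 0.07; limma, adjusted p = 0.403) with overlapping groups. Rps19, the gene most often mutated in Diamond-Blackfan anaemia, was at -0.72, and at -1.61 without HF mouse 8. Rpsa, also known as the laminin receptor, was at -0.71, and at -1.17 without LF mouse 2. Rps18 probe set 1455572_x_at had -0.83, and -1.60 without HF mouse 5; the 6 probe sets of this gene split into 4 lower and 2 higher. Rps16, whose tail reaches the tRNA in the P site, went the other way: LF values were -4.49 to 2.94 millionths (median 0.92), HF values 0.60 to 9.59 (median 5.15), and the standardized difference was 1.53 (0.27 to 2.74; limma, adjusted p = 0.232). Its mean of 5.99 is below the column median, and with column medians subtracted it was at -1.92.

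In the large subunit Rpl39 had the lowest value. LF mice lay between -3.25 and 2.68 millionths (median 0.71) and HF mice between -15.0 and -0.82 (median -7.37). All HF mice but mouse 5 were below the lowest LF mouse. The difference was -1.84 (-3.13 to -0.50; limma, adjusted p = 0.150). After quantile normalisation, which works on ranks, it was 0.07.

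Proteins of the ribosomal stalk, which draws in elongation factors, were measured by 1 probe set each. Rplp0, the stalk base, ran from -1.87 to 1.47 millionths in LF (median 0.42) and from -2.79 to -0.57 in HF (median -1.87), with 3 HF mice below all LF mice and a difference of -1.38 (-2.56 to -0.16; limma, adjusted p = 0.331). Rplp2 was at -0.45. Rpl11, which with the 5S RNA can bind and restrain MDM2, was at -0.50; its HF mouse 8 stood 1.57 millionths above the LF mean and the HF median was -0.87. Without that mouse Rpl11 was at -1.31. Rpl7 (1415979_x_at) had -1.09 and Rpl22 (1453118_s_at) -1.46 (-2.66 to -0.22), with 4 HF mice of each below every LF mouse. Over the fits without 1 mouse the lowest limma adjusted p of Rpl22 was 0.436. Without HF mouse 8 Rpl7 was at -1.83.

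Paralogues with their own expression patterns were measured as well. Rpl7l1, related to Rpl7, had -0.54, and Rpl39l, known from male germ cells, had -0.66 next to -1.84 for Rpl39. Rpl3l, known from heart and skeletal muscle, was at -0.11 with a mean of 6.54, below the column median. Rpl22l1, the paralogue that Rpl22 represses, ran from -246 to 229 millionths in LF (median -4.71) and from -109 to 179 in HF (median 113), so the HF range lay inside the LF range and the difference was 0.43 (-0.64 to 1.48). Rps27l, a target of p53, was at 0.24 and 0.30 in its named probe sets, and Rps27 at -0.26. Rps4l was at -0.33 with values that ran from -756 to 631 millionths in LF. Rpl27a probe set 1437729_at was at -0.0044, with HF mouse 8 at 922 millionths above the LF mean and the other HF mice between -430 and -7.90.

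**Figure D4:**
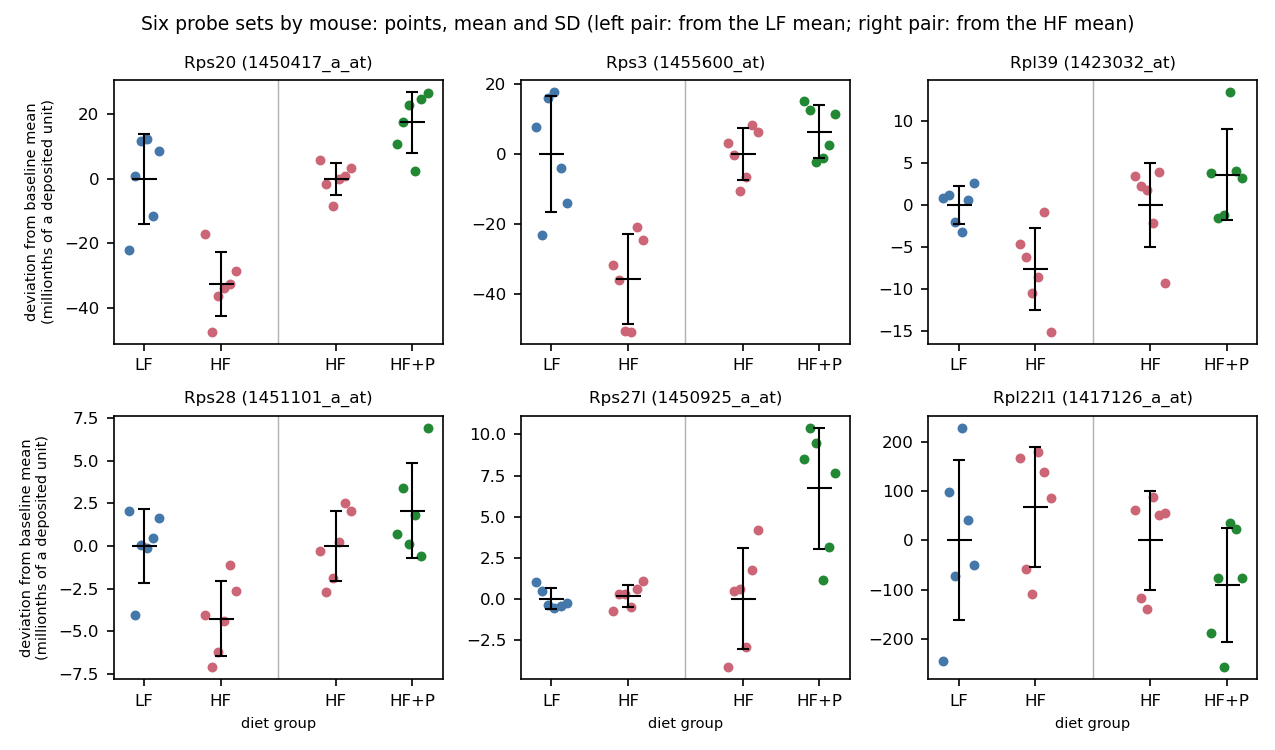
Values of 6 named probe sets in every mouse as deviations from the baseline mean (millionths of a deposited unit, vertical axis), with the group mean and SD; in each panel the left pair is LF and HF and the right pair is HF and HF+P, whose values come from a separate processing run. HF values of Rps20 reach from -47.2 to -17.1 and HF+P values from 2.27 to 26.7, while groups of Rpl22l1 overlap widely.

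The comparison of HF+P with HF asks what the propagule powder did on top of the high-fat diet. Ribosomal protein signals were mostly higher in HF+P than in HF by a small fraction of the pooled SD, and none of the 105 probe sets passed. A higher mean was seen in 85 members (81%), against 49.3% of all probe sets. The median standardized difference was 0.33, against -0.0095 over all, with the middle 50% of members between 0.098 and 0.67. The limma fit with Benjamini-Hochberg adjustment called 0 members, against 0.00222% of all probe sets, which is 1 probe set; the count was also 0 with trend and robust settings or array weights. An unadjusted p below 0.05 was reached by 5 members (4.76%, against 6.94% of all), 4 higher (3.81%, against 3.74%) and 1 lower (0.952%, against 3.2%), shares that are near or below the background. No member separated the groups. Of all probe sets, 0.162% had every HF+P mouse above every HF mouse, and 0.193% had every HF+P mouse below.

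By subunit, 47 of 57 probe sets of 40S proteins were higher with a median of 0.36, and 38 of 48 of 60S proteins with a median of 0.29. Members with a mean of at least 10 were higher in 61 of 65 cases with a median of 0.40; of all probe sets in that range 41.5% were lower, and their median was 0.14. Between 8 and 10, 9 of 14 members were higher with a median of 0.15, with no share taken over all probe sets. Below 8 it was 15 of 26 with a median of 0.20, while 53.8% of all probe sets there were lower, with a median of -0.055. Plain _at members were higher in 21 of 34 cases with a median of 0.20, while 52.0% of all plain _at probe sets were lower, with a median of -0.028. By gene, 33 of 49 had every probe set higher, 6 every probe set lower and 10 both signs. With column medians subtracted 9 members were lower against 29.7% of all probe sets, and after quantile normalisation 18 of 50 against 45.6%; 0 members passed in either case (limma), against 0.00222% of all as higher in the former and 0.00246% as lower in the latter. The baseline of this comparison is the HF mice whose values were low against LF. Side by side, 81 members were lower in HF than LF and higher in HF+P than HF, 9 were lower in both, 4 higher in both, and 11 higher and then lower; since both differences use the HF mice with opposite sign, these counts are no independent evidence.

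Per mouse, the median deviations from the HF mean were -0.47, -0.91, -0.62, 0.29, 0.63 and 1.18 in HF mice 1, 2, 3, 4, 5 and 8. In HF+P they were -0.17, 0.47, 0.048, 0.19, 0.23 and 1.66 in mice 1, 2, 3, 4, 7 and 8. HF mice 1, 2 and 3 were again the lowest, HF+P mouse 8 lay above every HF mouse, and the other 5 HF+P mice lay inside the HF range. Without HF+P mouse 8 the lower members went from 20 to 37 and the median to 0.19. Without HF mouse 2 they went to 34 with a median of 0.14, and without HF mouse 4 to 13. Over all fits without 1 mouse the median lay between 0.14 and 0.55, the latter without HF mouse 8. The order of the HF mice was much alike in both processing runs: the same HF mouse was lowest for 85 of 105 members and highest for 97.

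**Figure D5:**
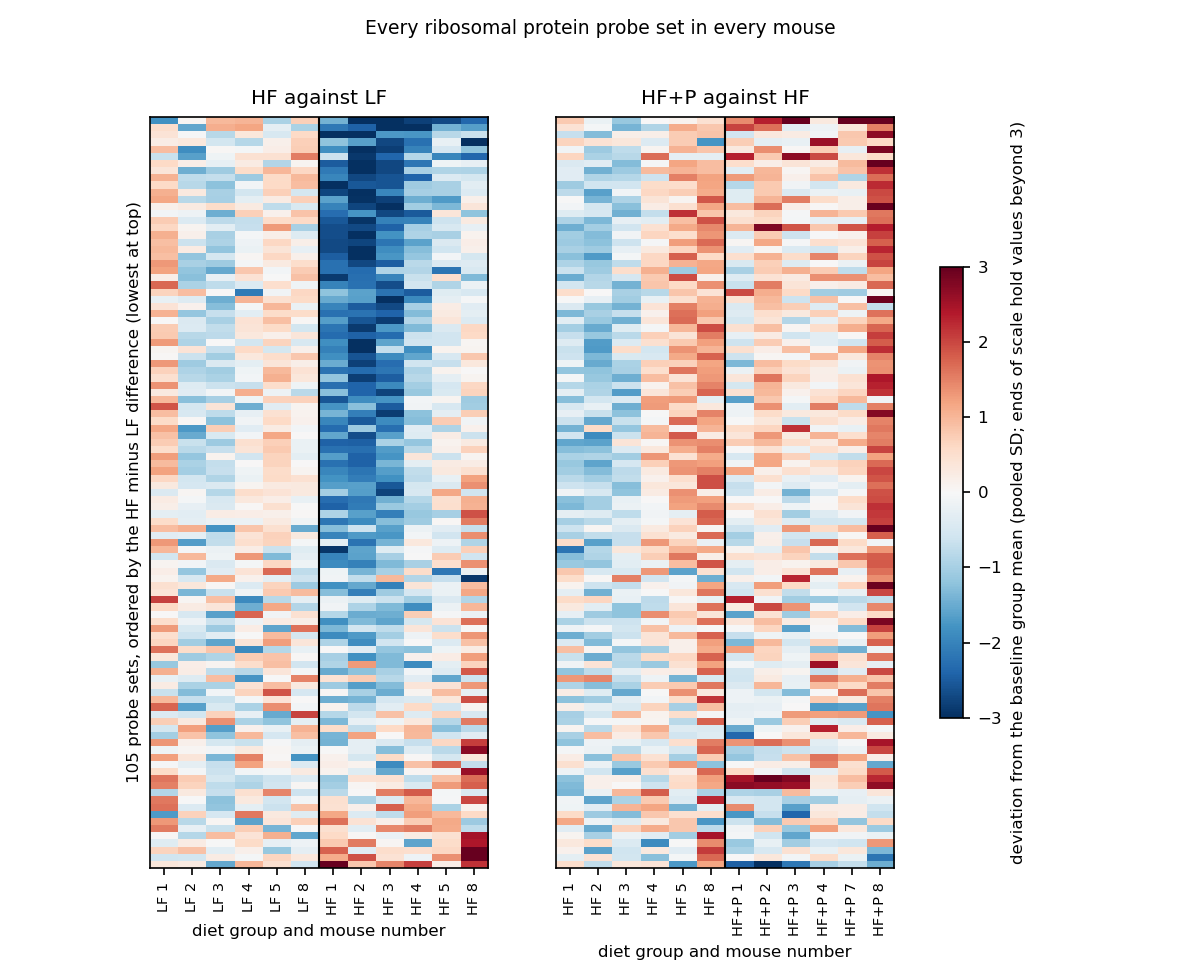
Deviation of each of the 105 members (lines, ordered by the HF minus LF difference) in each mouse (columns, by diet group and mouse number) from the LF mean on the left and the HF mean on the right, in pooled SDs on a colour scale that ends at 3 in either direction. Blue columns of HF mice 1, 2 and 3 (medians -1.55, -1.82 and -1.62) and the red column of HF+P mouse 8 (median 1.66) stand out.

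Rps20, the lowest member against LF, had the highest standardized difference here. In probe set 1450417_a_at the HF mice ran from -8.49 to 5.90 millionths around the HF mean (median 0.38) and the HF+P mice from 2.27 to 26.7 (median 20.3). All HF+P mice except mouse 4 lay above the highest HF mouse. The value was 2.15 (95% interval 0.72 to 3.51; limma, Benjamini-Hochberg adjusted p = 0.462), or 3.32 without HF+P mouse 4 (adjusted p = 0.322), and that of 1421935_at was 1.33 (0.12 to 2.50).

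Rps27l, at 0.24 and 0.30 against LF, was next. In 1450925_a_at HF mice lay between -4.15 and 4.17 millionths (median 0.56) and HF+P mice between 1.16 and 10.4 (median 8.08). In both probe sets 4 of 6 HF+P mice were above every HF mouse. The differences were 1.82 (0.49 to 3.10) and 1.78 (0.46 to 3.05), each with an adjusted p of 0.542 in limma, and the remaining probe set was higher as well. Rpl22 probe set 1453118_s_at was at 1.65 (0.36 to 2.89), also with 4 HF+P mice above every HF mouse. Its interval excludes zero, but 0 probe sets of 60S proteins were higher at an unadjusted limma p below 0.05.

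Rps16 was again opposite to most members. HF values were -2.81 to 1.93 millionths (median 0.61) and HF+P values -5.23 to -1.15 (median -2.94), so that 3 HF+P mice lay below all HF mice. The difference was -1.69 (-2.94 to -0.39; limma, adjusted p = 0.583). Rpl22l1 was at -0.77 (-1.84 to 0.35), with HF mice between -140 and 88.0 millionths and HF+P mice between -257 and 35.6.

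For the remaining named members the 95% intervals included zero. Rps24 (1456628_x_at) was at 0.82, Rps3 at 0.78, Rps28 at 0.78, Rpl11 at 0.78, Rps14 at 0.68, Rpl7 at 0.66, Rpl39 at 0.64 and Rpl39l at 0.58. Rps6, the S6 kinase substrate, was at 0.49 (-0.59 to 1.54), with HF+P mice between -6.46 and 12.9 millionths and HF mice between -12.3 and 10.6. Smaller values were 0.45 for Rps4l, 0.31 for Rplp0, 0.25 for Rpl3l, 0.24 for Rps24 (1436064_x_at), 0.20 for Rplp2, 0.13 for Rpsa and 0.078 for Rps27. Below zero were Rps19 at -0.019, Rps18 at -0.062, Rpl27a at -0.14 and Rpl7l1 at -0.22. With 6 mice a group these intervals reach about 1 pooled SD to either side, so a difference of that size was not detectable here. The adjusted test missed larger differences too. In simulated data for HF+P against HF it recovered 3% of 100 probe sets shifted by 2 pooled SDs, and 58% of those shifted by 4.

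Genes around ribosome production were looked at in lists, and 0 probe sets of any of them passed in either comparison (limma, Benjamini-Hochberg). Of all probe sets 0.671% passed in HF against LF and 0.00222% in HF+P against HF, so in lists of this size few calls could occur. For the counts below, 49.2% of all probe sets were lower in HF (median 0.015) and 49.3% higher in HF+P (median -0.0095). Of 47 probe sets of translation factors and other genes with TOP mRNAs, 34 were lower in HF than LF with a median of -0.42, and 36 were higher in HF+P than HF with a median of 0.35. The genes named in these lists were chosen after their values were seen. Eif3e, a subunit of initiation factor 3, has 4 probe sets, which lay between -1.47 and 0.35 in HF against LF and between 0.0051 and 2.58 in HF+P against HF, where the highest had an adjusted p of 0.560 in limma. Fau, whose fusion protein releases a 40S protein, was at -0.70 and 0.12. Of 81 probe sets of assembly factors 47 were lower in HF (median -0.13) and 53 higher in HF+P (median 0.22). Fbl, the methyltransferase that modifies ribosomal RNA, had 3.65 in 1416684_at (adjusted p = 0.0699) and 1.68 in 1416685_s_at (adjusted p = 0.244, limma) in HF against LF, and 0.016 and 0.18 in HF+P against HF. Nvl, needed for 60S assembly, had both signs in HF against LF, with -2.34 in 1453019_at (adjusted p = 0.111, limma), -0.38 in 1453018_at and 0.66 in 1457411_at.

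Of 35 probe sets of RNA polymerase I and its factors, 23 were lower in HF (median -0.21) and 18 higher in HF+P (median 0.012). For 46 probe sets of TOP control and mTORC1 genes the counts were 22 lower in HF (47.8%, median 0.10) and 24 higher in HF+P (median 0.043). These are near the shares over all probe sets. Tia1, a protein that binds TOP mRNAs, had -2.41 in 1416812_at against LF (adjusted p = 0.0692) and 2.29 against HF (adjusted p = 0.462, limma); its 6 probe sets lay between -2.41 and 0.64 in the former comparison and between -1.05 and 2.29 in the latter. Mitochondrial ribosomal proteins, which form a separate ribosome, had 86 of 156 probe sets (55.1%) lower in HF with a median of -0.15. In HF+P 99 were higher, with a median of 0.21.

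Markers of other cells were also mostly lower or mostly higher in some lists. Hepatocyte markers such as Alb and Apoa1 were lower in HF in 14 of 17 probe sets (median -0.58), with summed levels of 224.723 to 224.731 in LF and 224.717 to 224.727 in HF. Kupffer cell and macrophage markers were higher in 14 of 15 (median 0.79; sums 132.797 to 132.972 in LF and 132.804 to 132.922 in HF) and lymphocyte markers in 12 of 12 (median 0.76; sums 82.6051 to 82.6083 and 82.6058 to 82.6107). HF mouse 3, low for ribosomal proteins, had the highest medians for both, 2.90 and 2.43 pooled SDs. HF mouse 2, the lowest for ribosomal proteins, was at 0.041 and -0.25, and HF mouse 1, also low, at -0.22 and 0.73. HF mouse 4 was at 0.97 and 1.06, and HF mouse 5, within the LF range for ribosomal proteins, at 1.04 and 0.77. HF mouse 8, the highest HF mouse for ribosomal proteins, was at 0.33 and 0.046. LF mouse 3, the lowest LF mouse for ribosomal proteins, had the highest LF medians for both, 1.65 and 0.70. The other LF mice were between -0.78 and 0.015 for Kupffer cells and between -0.39 and 0.047 for lymphocytes. Leaving out HF mouse 3 left 88 of 105 members lower, with a median of -0.70. In HF+P against HF the medians were 0.078 for hepatocytes, -0.66 for Kupffer cells (15 of 15 lower) and -0.49 for lymphocytes (11 of 12 lower). Red cell precursor markers had 0.13 and -0.66 and pancreatic acinar markers 0.005 and -0.16. The 18S ribosomal RNA controls of the array were at -1.73, -1.26 and -1.23 in HF against LF and at 0.083, -1.03 and -0.82 in HF+P against HF. The Gapdh controls were at -0.98, -1.17 and -1.19 and then at -0.16, -0.14 and -0.34, and the actin controls at 0.63, 0.38 and 0.39 and then at -0.55, -0.42 and -0.43. The difference between the 3' and 5' Gapdh controls, a sign of RNA quality, ran from -0.38 to 0.44 millionths around the LF mean in LF and from 0.047 to 1.97 in HF. It was highest in HF mouse 8, the HF mouse with the highest members, while HF mice 1, 2 and 3 were at 0.34, 0.047 and 0.95. In the set with HF+P it was again highest among HF in mouse 8 (3.84 from the HF mean) and lowest in mice 1 and 2 (-1.88 and -2.06). Among HF+P it was highest in mouse 8 (3.93) and lowest in mouse 1 (-5.22), which are also the mice with the highest and the lowest members. The 3' minus 5' actin difference was highest in HF mouse 8 as well (47.6 and 63.8), but lowest in HF mouse 3 (-49.2 and -88.3), and was 14.2 in HF+P mouse 8, inside the HF+P range. No marker was at 0, since the lowest deposited value was 5.36. The part of cell makeup or RNA quality in the ribosomal protein values was not tested, and in liver tissue fewer cells of a type and less RNA per cell cannot be told apart.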

How the data were processed

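Per the labels' protocols, Trizol RNA was labelled as biotinylated amplified RNA. Values were deposited by the authors as 1 table, made with R 2.7.2 per the submitters' processing notes; the log base, the normalisation and how probes were summarised are not stated there, and the deposited values, 5.36 to 15.0, were handled as log2. Of 45101 probe sets 34958 list 1 symbol, 932 several and 9211 none here. After leaving out 64 array controls, each comparison was fitted in limma 3.58.1 (R 4.3.3; lmFit, eBayes, two-sided, 6 mice per group, no covariate, no filter) with Benjamini-Hochberg adjustment over 45037 probe sets at 0.05; the code was tested on simulated data. The number of arrays limits precision. Standardized differences are Hedges-corrected with 95% noncentral t intervals. These use each probe set's own SD, whereas limma moderates variances over all probe sets, so interval and test can differ. Lists have counts and medians, no test. The members and lists were chosen with earlier results of these data known. Named were the 8 members with the lowest p in HF against LF, the 5 in HF+P against HF, the 3 with the largest SD per value set, role genes and paralogue pairs, 27 in all. Promoters are RefSeq's, GRCm38.p6; Rps20, Rps14, Rps29, Rps4l, Rpl8 and Rpl7 had no entry used here. Alternatives were other scalings, filters, variance models, the replicate block and leaving out each mouse.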

Additional observations from a re-analysis of the deposited data

Results flagged for a closer look

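A mouse stood apart from the other 5 of its group in 10 of 112 sets of values. This was judged by its gap to the nearest mouse relative to the range of the group. Chance gives about 1 in 20 for independent sets, but these are not independent. Probe sets share mice, and the HF mice occur in both comparisons. Some probe sets, such as that of Rpl27a, were named for a large SD, which favours such gaps. The count was therefore not set against chance. HF+P mouse 8 had a median deviation over all members of 1.66 pooled SDs, with the others between -0.17 and 0.47. The same mouse had the highest HF+P values of Rps24 (1456628_x_at, 49.7 millionths above the HF mean, others up to 15.8), Rpl11 (12.7, others up to 4.14), Rpl7 (7.51, others up to 1.54) and Rpl27a (1471, others below -131). Rpl27a was also highest in HF mouse 8, at 921.8 millionths above the LF mean, and at 1286 above the HF mean where these arrays were processed again. Other mice apart were HF+P mouse 4 for Rpl39 (13.4, others -1.53 to 4.05), HF+P mouse 1 for Rpl7l1 (5.29, others -2.53 to -0.22) and LF mouse 2 for Rps28 (-4.08 from the LF mean, others -0.12 to 2.06).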

How the results depend on the processing

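Counts of members called were 0 in both comparisons as deposited. In HF against LF they were 12 after quantile normalisation, 99 with column medians subtracted and 2 at a threshold of 0.1, when all probe sets called were 7258, 40266 and 861, against 302 as deposited. All called were 568 above the median level and 194 among plain _at probe sets. The members' median went to -2.09 with column medians subtracted, when that of all probe sets went to -1.99. In HF+P against HF the lower members were 18 of 50 (quantile normalisation), 9 (medians subtracted), 13 of 34 (plain _at) and 4 of 65 (a mean of at least 10, chosen after seeing the data, with 0 probe sets called in all). Signs turned after quantile normalisation for Rpl39 (0.074) and Rps14 (2.66, passing as higher) in HF against LF and for Rpl39 (-0.083), Rps20 1421935_at (-0.17) and Rpl27a (0.14) in HF+P against HF. With medians subtracted they turned for Rps27l (-2.02 and -2.003) and Rps16 (-1.92) in the former and Rps19 (0.073) and Rpl7l1 (0.21) in the latter. The cause was not tested. With probe sets of several symbols added, also chosen after seeing the data, 187 of 215 were lower in HF against LF and 50 of 215 in HF+P against HF.

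The mouse number as a replicate block gave 0 members called in both comparisons (246 and 1 of all probe sets), with Rps18 at 0.19 and Rps19 at 0.018 in HF+P against HF. Same-numbered mice correlated by -0.13 to 0.098 and by 0.034 to 0.21. Their own number was the best match for 4 of 6 and 2 of 5, more than random matching gives on average. The labels state no pairing, so the numbers were not taken as pairs. Whether same-numbered mice share a source of variation was not tested.

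Without 1 mouse, members called in HF against LF were 0 to 1 (Rps20 without LF mouse 1; Rpl27 1448217_a_at, chosen after its values were seen, without HF mouse 8, -3.36, adjusted p = 0.0318, limma). All called were 131 to 325 and 0 to 2, and lower members in HF+P against HF 13 to 37. Of the 27 named values 15 and 18 moved by over 1.5 times or crossed zero in at least 1 of these fits. They crossed zero for Rpl27a (-1.42 to 0.24), Rpl3l (-0.43 to 0.35), Rps27 (-0.53 to 0.11) and Rps27l 1450925_a_at (-0.025 to 0.60) in HF against LF, and for Rpl27a (-0.76 to 0.22), Rplp2 (-0.097 to 0.54), Rps18 (-0.55 to 0.21), Rps19 (-0.43 to 0.34), Rps24 1436064_x_at (-0.089 to 0.46), Rps27 (-0.24 to 0.36) and Rpsa (-0.19 to 0.39) in HF+P against HF. No detection calls were used, so dim probe sets near or below the column median carry signal that was not set against background.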
